A study of Homo sapiens with 12 samples.

Results

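DDX42 and 8 protein subunits of the SF3a and SF3b complexes (SF3B1, SF3B2, SF3B3, SF3B4, SF3B5, SF3A1, SF3A2 and SF3A3) were followed as 9 of 25365 names in a table of FPKM, the number of sequenced fragments per kilobase of a transcript after scaling for library depth. The members were chosen by gene symbol. DDX42 was also selected on its measured rise with pyridostatin in these libraries, so its response to the compound is given here as a description without a test. The SF3 subunits were taken because they are splicing partners of DDX42, and all 9 members passed the filter on low values (mean over 12 libraries not below 1 FPKM), as did 11881 genes in all.

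RNA-seq was made from A549 cells, an established lung adenocarcinoma line, either wild type or PARP3-/-. Cells of each genotype received the DMSO vehicle or 1 μM pyridostatin, a small molecule that binds and stabilizes G-quadruplex DNA, for 24 h. Each of the 4 groups holds 3 libraries from biological replicates. The PARP3-/- cells came from a Cas9 deletion in the first exon of PARP3 and were grown out by serial dilution, so the genotype comparison rests on cloned cells. Polyadenylated RNA was sequenced as stranded single-end reads of 75 bases.

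The spliceosome removes introns from precursor mRNA, and the U2 snRNP within it recognises the branch site. SF3a and SF3b are protein complexes of the U2 snRNP that clamp the U2 RNA onto the branch site, with SF3B1 as the large scaffold beside the branch helix. DDX42, also named SF3b125, is a DEAD-box RNA helicase first found with SF3b, and is known to act while the U2 snRNP is being assembled. SF3B1 is a frequent site of mutation in blood cancers and the target of several splicing inhibitors.

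One stretch of the DDX42 promoter is shown because the compound used in the study binds DNA that folds into G-quadruplexes. RefSeq windows covering the 250 bases before the transcription start (GRCh38.p14) matched 8 of the 9 members by symbol, all except SF3B3. Each window was searched on both strands for the canonical G-quadruplex motif, defined as at least 4 runs of GGG or longer (CCC for the opposite strand) separated by 1 to 7 bases. Among the 8 members with a window only DDX42 held a match, at chr17:63774117-63774138, which lies 53 to 32 bases before its RefSeq start. The stretch printed is chr17:63774113-63774142 on the plus strand, with the matched bases in capitals and 4 flanking bases on each side.
DDX42 promoter: gtagCCCCGGCCCCGCCCTTCTGCCCgcgc
The match reads as C on the coding strand, so the G runs are on the opposite strand. By GENCODE release 29 it falls ahead of the start of 16 DDX42 transcripts, in an intron of 2 and in the 5′ UTR of 1. The motif was common: it occurred in 32.1% of the 12680 windows of the tested genes and in 23.5% of all 35116 windows, so holding it does not set DDX42 apart, and neither its presence here nor its absence from the other windows was tied to a measurement.

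The cell line label was checked against defining markers. Of the 5 epithelial markers all were detected, with KRT8 between 2766 and 3375 FPKM and EPCAM between 0.879 and 2.36 FPKM. The 4 markers of alveolar type II cells summed to at most 0.145 FPKM in any library, with SFTPB listed at 0 throughout. A 0 in this table can also mean that a gene was not quantified, since widely used genes such as DDX39B are listed at 0 too, so a 0 alone says little about a cell type. Endothelial markers summed to at most 0.375 FPKM and fibroblast markers to at most 1.66 FPKM, and among leukocyte markers CD3E was listed at 0 while CD68, a lysosomal protein that many cells make, reached 21.1 FPKM. The targeted gene PARP3 ran from 3.40 to 3.96 FPKM in wild-type vehicle libraries and from 4.07 to 4.92 FPKM in the vehicle libraries labelled PARP3-/-. With pyridostatin it ran from 3.57 to 4.05 FPKM in wild type and from 4.30 to 4.73 FPKM in the libraries labelled PARP3-/-. PARP3 was thus higher, not lower, under the knockout label. A value over the whole transcript does not check a deletion within the first exon, so the label is used here as given. Wild-type vehicle replicate 2 stood apart from its group. Its genes deviated from the mean of the group's remaining libraries by a median of 0.156 on the log2 scale. The same measure was 0.0476 to 0.0960 in the other 11 libraries. In replicate 2, genes with long transcripts (at least 5300 bases) lay lower than genes with short ones (at most 2266 bases). The difference was 0.38 on the log2 scale, relative to the same mean. Values without replicate 2 are given beside the members it moves most.

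DDX42 transcript was higher in every pyridostatin library than in every vehicle library, by close to 1 on the log2 scale in both genotypes. In wild-type cells it measured 49.9, 46.4 and 50.2 FPKM in the vehicle libraries and 106.9, 98.9 and 96.8 FPKM in the pyridostatin libraries. In PARP3-/- cells it measured 53.0, 52.1 and 50.7 FPKM with vehicle and 92.2, 102.6 and 103.6 FPKM with pyridostatin. The treated and vehicle values did not overlap, and the spread within each group of 3 was small beside the distance between them. The difference was 1.03 (SE 0.055) in wild type and 0.92 (SE 0.055) in PARP3-/- on the log2(FPKM + 1) scale, the scale of all log2 fold changes here, which corresponds to 2.04-fold and 1.90-fold. Averaged over genotypes it was 0.98. By size of rise DDX42 stood at place 68 of 11881 tested genes in wild type and at place 65 in PARP3-/-. Without wild-type vehicle replicate 2 the wild-type difference was 1.00. These are bulk values, in which a change in RNA per cell and a change in the share of cells that make it cannot be told apart.

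The size of the DDX42 rise did not differ detectably between genotypes. The rise in PARP3-/- minus that in wild type was -0.11, with a 95% interval of -0.28 to 0.06 (limma with Benjamini-Hochberg adjustment, adjusted p = 0.999), and -0.07 without wild-type vehicle replicate 2. A rise that is smaller in PARP3-/- cells by up to 0.28 therefore cannot be told apart from an equal one with 3 libraries a group.

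**Figure D1:**
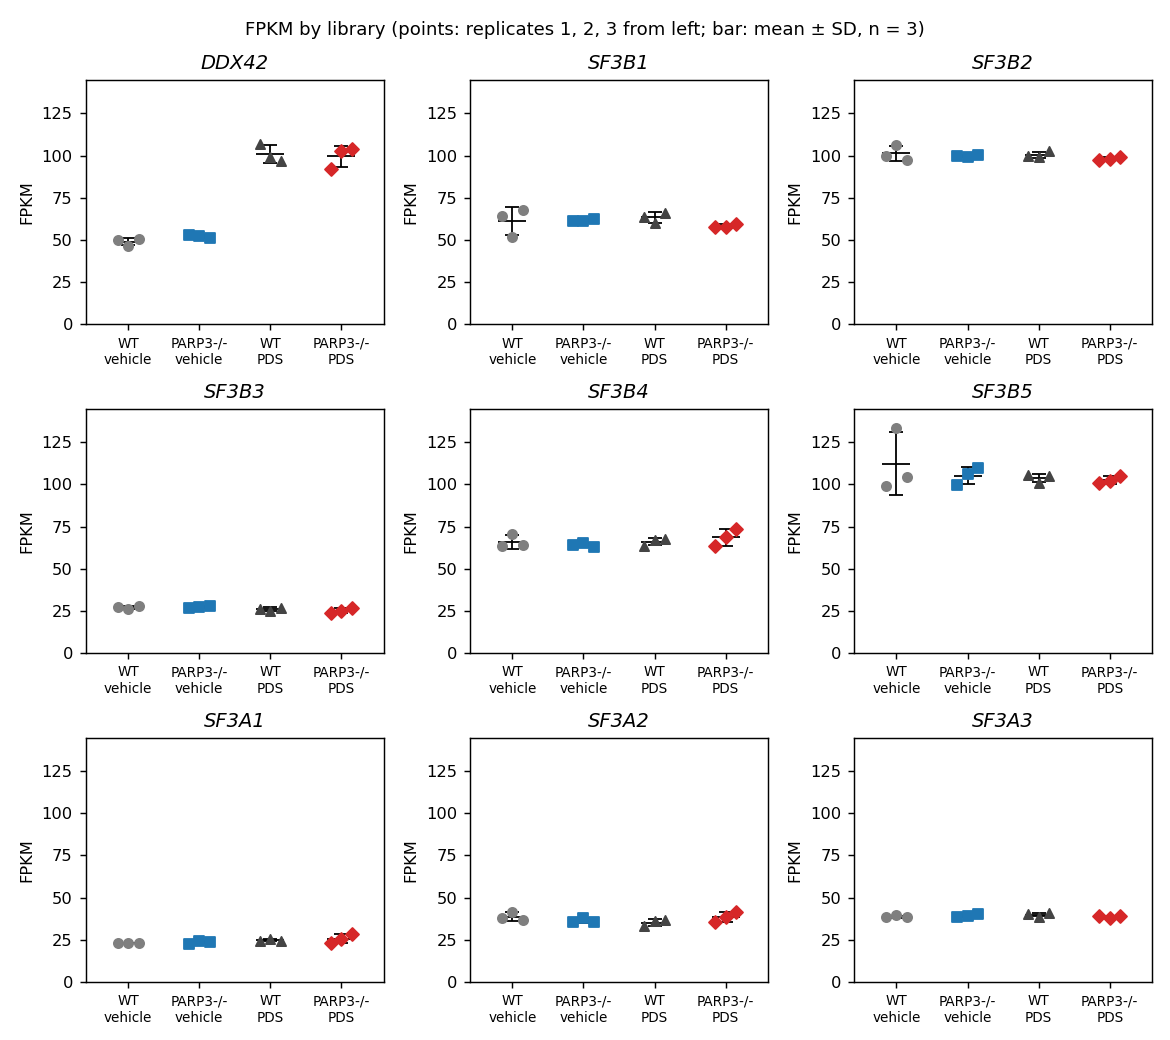
FPKM (y axis, from 0, one scale in all panels) of DDX42 and the 8 SF3 members in the 12 libraries by group (x axis, PDS for pyridostatin); points are libraries, bars the mean ± SD of 3. The DDX42 points move from 46.4 to 53.0 FPKM with vehicle up to 92.2 to 106.9 FPKM with pyridostatin, while each SF3 member stays near its vehicle level apart from single libraries such as wild-type vehicle replicate 2 for SF3B1 and SF3B5.

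None of the 8 SF3 subunits passed the test for pyridostatin in either genotype or averaged over both. In wild type 0 of 8 were called by limma (adjusted p under 0.05), beside 4.17% of all genes tested. There 0 of 8 had an unadjusted p under 0.05, beside 20.3% of all genes. In PARP3-/- cells 0 of 8 were called, beside 5.56% of all genes tested. Of the 8, 1 had an unadjusted p under 0.05 (SF3B3), beside 19.6% of all genes. Averaged over genotypes 0 of 8 were called in either direction, beside 13.9% of all genes (7.71% higher and 6.24% lower). An unadjusted p under 0.05 was found for 2 of 8, beside 28.9% of all genes. A pair of thresholds was also applied, an adjusted p under 0.05 with a log2 fold change beyond 1 in either direction. The study used that pair between genotypes, with its own count test. No SF3 member reached it in any of these pyridostatin comparisons. Of all genes, 0.0505% passed in wild type, 0.0673% in PARP3-/- and 0.0505% averaged over genotypes. A count of 0 called in 8 is close to the shares of all genes called, so the intervals of the members carry more than the counts. These called shares themselves moved with the libraries in the fit. With 1 library left out they ran from 1.51% to 5.98% in wild type and from 2.14% to 13.1% in PARP3-/-. The averaged log2 fold changes of the 8 ran from -0.09 to 0.10 with a median of -0.01, against a median of 0.00 for all genes tested.

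SF3B1, the scaffold of the branch site pocket, measured 64.1, 51.6 and 67.4 FPKM in wild-type vehicle libraries and 63.7, 60.0 and 66.1 FPKM in wild-type pyridostatin libraries. In PARP3-/- cells it measured 61.3, 60.9 and 62.6 FPKM with vehicle and 57.4, 57.4 and 59.3 FPKM with pyridostatin. The wild-type groups overlapped, and in PARP3-/- cells the pyridostatin libraries all lay below the vehicle libraries by a small distance. The averaged log2 fold change was -0.01 (adjusted p = 0.910, limma), with an interval that corresponds to a change between -9.17% and 8.22%. Without wild-type vehicle replicate 2, the lowest SF3B1 library, it was -0.07 (adjusted p = 0.112).

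SF3B2, which pairs with SF3B4, measured 99.8, 106.2 and 97.6 FPKM in wild-type vehicle libraries and 99.6, 98.9 and 102.5 FPKM in wild-type pyridostatin libraries. Its PARP3-/- libraries ran from 99.1 to 100.3 FPKM with vehicle and from 97.6 to 99.1 FPKM with pyridostatin. The averaged log2 fold change of SF3B2 was -0.02, or 0.00 without wild-type vehicle replicate 2, and the interval with all libraries allowed a change between -4.84% and 2.73%. SF3B4, an RNA-binding protein that contacts the intron upstream of the branch site, had an averaged log2 fold change of 0.05 (interval -2.81% to 10.1%), or 0.07 without that library, and its groups overlapped in both genotypes. Over both genotypes SF3B4 ran from 62.8 to 70.7 FPKM with vehicle and from 63.6 to 73.7 FPKM with pyridostatin.

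SF3B3, a large scaffold protein paired with SF3B1, came closest to a fall. It measured 27.1, 26.1 and 27.6 FPKM in wild-type vehicle libraries against 26.1, 24.9 and 26.9 FPKM with pyridostatin. In PARP3-/- cells it measured 26.6, 27.2 and 28.0 FPKM with vehicle against 23.7, 25.1 and 26.3 FPKM with pyridostatin, and there the groups did not overlap. The averaged log2 fold change was -0.09 (SE 0.032, adjusted p = 0.103, limma), an interval of -10.3% to -1.07%. An exact two-sided permutation test within genotypes gave p = 0.015 for SF3B3, unadjusted among 8 such tests, where 0.005 is the smallest value that the 400 arrangements can give. SF3B3 passed the adjusted threshold once the libraries were brought to a common median (-0.11, adjusted p = 0.0393), and over all 19 alternatives its adjusted p ran from 0.0393 to 0.204.

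SF3B5, a small SF3b subunit, ran from 98.9 to 133.6 FPKM in wild-type vehicle libraries, and its highest value was in replicate 2, the library in which SF3B1 was lowest. The annotated transcript of SF3B5 is short (693 bases) and that of SF3B1 is long (6526 bases). The ratio of SF3B1 to SF3B5 within that library was 0.386, against 0.563 to 0.648 in the other 11 libraries. The averaged log2 fold change of SF3B5 with pyridostatin was -0.07, and its interval of -13.3% to 5.38% was the widest of the 8. This value rested on that library: without it the averaged difference was close to 0 (adjusted p = 0.998, limma), and the wild-type difference turned from -0.10 to 0.03.

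The SF3a subunits, which join SF3b to the rest of the U2 snRNP, did not pass the test either. SF3A1, the largest of them, measured 23.2, 23.2 and 22.7 FPKM in wild-type vehicle libraries and 24.1, 25.4 and 24.4 FPKM with pyridostatin, without overlap. In PARP3-/- cells it measured 22.7, 24.3 and 23.8 FPKM with vehicle and 23.0, 25.1 and 28.2 FPKM with pyridostatin, with overlap. Its averaged log2 fold change was 0.10 (SE 0.043, adjusted p = 0.164, limma), an interval of 0.148% to 14.3%. The exact two-sided permutation p of SF3A1 was 0.035, unadjusted among 8 such tests. Apart from SF3A1 and SF3B3, the members had permutation p from 0.28 (SF3B4) to 0.92 (SF3B1). Leaving out PARP3-/- pyridostatin replicate 1, the lowest SF3A1 library of its group, gave 0.13 and an adjusted p of 0.0417. That was the only call of SF3A1 with 1 library left out at a time. Over the 12 such fits its averaged value ran from 0.06 to 0.13, with adjusted p from 0.0417 to 0.284 (limma). SF3A2, a zinc finger subunit, ran from 35.4 to 41.5 FPKM with vehicle and from 32.8 to 41.3 FPKM with pyridostatin over both genotypes. It had log2 fold changes of -0.13 in wild type and 0.08 in PARP3-/-, a difference of 0.21 between genotypes whose interval reached from just under 0 to 0.41 (adjusted p = 0.999, unadjusted p = 0.0508, limma). Without wild-type vehicle replicate 2, the highest SF3A2 library, the wild-type value was -0.07 and the difference between genotypes 0.15 (adjusted p = 0.563). SF3A3, another subunit of SF3a, had an averaged log2 fold change of 0.01 (interval -2.78% to 4.06%), and its 12 libraries all lay between 38.0 and 40.5 FPKM.

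**Figure D2:**
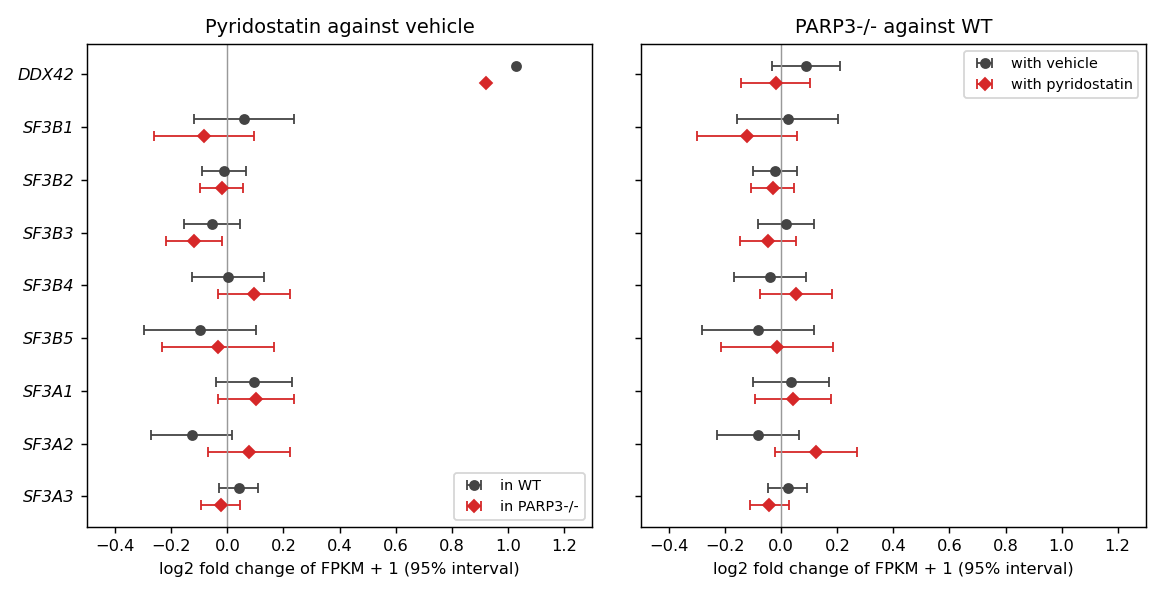
Log2 fold changes of FPKM + 1 (x axis) with 95% intervals for the 9 members (y axis; DDX42 is drawn without an interval on the left, where it was selected), pyridostatin against vehicle in each genotype on the left and PARP3-/- against wild type with each treatment on the right. On the left DDX42 sits at 1.03 and 0.92 and each SF3 member between -0.13 and 0.10, and on the right all 9 members lie between -0.12 and 0.12.

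Since FPKM values are scaled to transcript length, the members can be ordered by level. That scaling left a difference by length in wild-type vehicle replicate 2, so the order between short and long transcripts carries this limit. SF3B5, the shortest, measured 133.6 FPKM in that library and 98.9 to 109.8 FPKM in the other vehicle libraries. With vehicle, over both genotypes, the means ran from SF3B5 (108.7 FPKM) and SF3B2 (100.4 FPKM) through SF3B4 (65.0 FPKM), SF3B1 (61.3 FPKM) and DDX42 (50.4 FPKM) to SF3A3 (39.0 FPKM), SF3A2 (37.4 FPKM), SF3B3 (27.1 FPKM) and SF3A1 (23.3 FPKM). Neighbours in that order that overlapped across the 6 libraries were SF3B5 with SF3B2, SF3B4 with SF3B1, SF3B1 with DDX42 through wild-type vehicle replicate 2, and SF3A3 with SF3A2. With pyridostatin DDX42 (100.2 FPKM) moved into the range of SF3B5 (103.3 FPKM) and SF3B2 (99.2 FPKM), and the 3 overlapped one another. SF3A1 (25.0 FPKM) and SF3B3 (25.5 FPKM) also overlapped with pyridostatin, which they did not with vehicle.

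Ratios within a library describe the same values free of any scaling between libraries. DDX42 to SF3B1 was 0.745 to 0.901 in the wild-type vehicle libraries and 1.46 to 1.68 in the wild-type pyridostatin libraries, and 0.811 to 0.865 against 1.61 to 1.79 in PARP3-/- cells. DDX42 to DDX46, another DEAD-box ATPase that works on the U2 snRNP at the branch site, was 1.20 to 1.38 against 2.35 to 2.75 in wild type and 1.33 to 1.35 against 2.59 to 2.79 in PARP3-/-. SF3B1 to DDX46, in contrast, averaged 1.58, 1.59, 1.59 and 1.58 in the 4 groups, with library values from 1.51 to 1.67. SF3B1 and DDX46 thus stayed within a narrow ratio to each other over all 12 libraries, whereas with pyridostatin the ratio of DDX42 to each of them lay above its vehicle range.

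No member passed the test between genotypes. With vehicle 0 of 9 members were called by limma, beside 9.41% of all genes tested. With pyridostatin 0 of 9 were called, beside 10.9% of all genes tested. Averaged over treatments 0 of 9 were called, beside 19.1% of all genes (12.2% higher and 6.95% lower in PARP3-/-). For the interaction 0 of 9 were called, beside 0% of all genes. In all 4 of these comparisons 0 of the 9 had an unadjusted p under 0.05. Of all genes, 21.6% had one with vehicle, 24% with pyridostatin, 31% averaged over treatments and 4.39% for the interaction. DDX42 was higher in PARP3-/- than in wild type with vehicle, without overlap (50.7 to 53.0 against 46.4 to 50.2 FPKM), but the difference of 0.09 did not pass (adjusted p = 0.416), and it was 0.05 without wild-type vehicle replicate 2, the lowest of these libraries. With pyridostatin the DDX42 groups overlapped, and the averaged difference was 0.03, an interval of -3.59% to 8.63%.

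SF3B1 was the member whose genotype result turned on 1 library. With pyridostatin it ran from 57.4 to 59.3 FPKM in PARP3-/- and from 60.0 to 66.1 FPKM in wild type, without overlap, and the log2 difference of -0.12 had an adjusted p of 0.412 (limma). Without wild-type vehicle replicate 2, whose spread enters the shared estimate of error, the same difference of -0.12 had an adjusted p of 0.0477, and the difference averaged over treatments moved from -0.05 (adjusted p = 0.616) to -0.11 (adjusted p = 0.0188). In that setting 1 of 9 members was called in each of these comparisons, beside 19.3% and 27.2% of all genes, so the count is not above the background.

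Other genes of the spliceosome were measured in the same way. Of 58 further genes in 7 lists (U2 core, other SF3b subunits, branch site factors, helicases, U1, tri-snRNP and U11/U12 proteins), 56 were tested, and the helicases DDX39B and DHX16 are listed at 0 in all libraries. Averaged over genotypes, 2 of 56 rose and 5 fell with pyridostatin, where 7.71% of all genes were called higher and 6.24% lower, and their log2 fold changes ran from -0.20 to 0.15 with a median of -0.05. DDX42, which was selected on its rise, lay outside that range at 0.98, so this distance is a description only. The 2 remaining SF3b subunits, SF3B6 (p14, which touches the branch site adenosine) and PHF5A (which sits beside SF3B1 at the branch site pocket), had log2 fold changes of -0.04 (adjusted p = 0.476) and -0.08 (adjusted p = 0.177).

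The largest fall with pyridostatin among these genes was that of U2AF1, the factor that recognises the 3′ splice site, from 92.6 ± 4.89 to 82.2 ± 3.99 FPKM in wild type and from 93.1 ± 3.79 to 79.5 ± 4.20 FPKM in PARP3-/- (mean ± SD, n = 3). Its log2 fold change was -0.20 (adjusted p = 0.00822, limma) and it passed in all 19 alternatives. RBM17, a partner of SF3B1 in alternative splicing, fell by 0.10 (adjusted p = 0.0115) and was not called after quantile normalization (adjusted p = 0.0541). RBM10, an RNA-binding regulator of exon choice, rose by 0.13 (adjusted p = 0.00902) and passed in all 19 alternatives. Its relative RBM5 rose by 0.15 (adjusted p = 0.0300), but lost the call in 9 of 19 alternatives. SNRPA1, the U2-A′ protein, fell by 0.17 (adjusted p = 0.0345), PRPF6 of the tri-snRNP fell by 0.10 (adjusted p = 0.0328) and ZCRB1 of the U11/U12 snRNP fell by 0.10 (adjusted p = 0.0451). These last 3 lost the call in 10, 8 and 14 of 19 alternatives, most of them the removal of 1 library.

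By list, to be read beside the 13.9% of all genes called in either direction, 1 of 9 U2 core proteins fell (median -0.09), 2 of 12 branch site factors rose and 2 fell (median -0.03), and 0 of 10 tested helicases were called (median 0.00). DDX46 had a log2 fold change of -0.01 and an adjusted p of 0.876. Of the 3 U1 proteins 0 were called, of the 12 tri-snRNP proteins 1 fell and of the 8 U11/U12 proteins 1 fell. Between genotypes, averaged over treatments, 1 of 56 was higher in PARP3-/- (PDCD7 of the U11/U12 snRNP, 0.13) and 3 were lower (SF3B6 at -0.13, HTATSF1 at -0.12 and ZCRB1 at -0.10), with adjusted p from 0.0187 to 0.0457 (limma), beside 12.2% of all genes called higher and 6.95% lower. The SF3B6 call was lost without PARP3-/- pyridostatin replicate 3 (adjusted p = 0.0509), and the calls of PDCD7 and ZCRB1 were lost in 11 of 19 alternatives each. HTATSF1, a U2 snRNP protein that binds SF3B1, lost its call without PARP3-/- vehicle replicate 3, without wild-type pyridostatin replicate 3 and without PARP3-/- pyridostatin replicate 3, with an adjusted p of up to 0.0597.

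**Figure D3:**
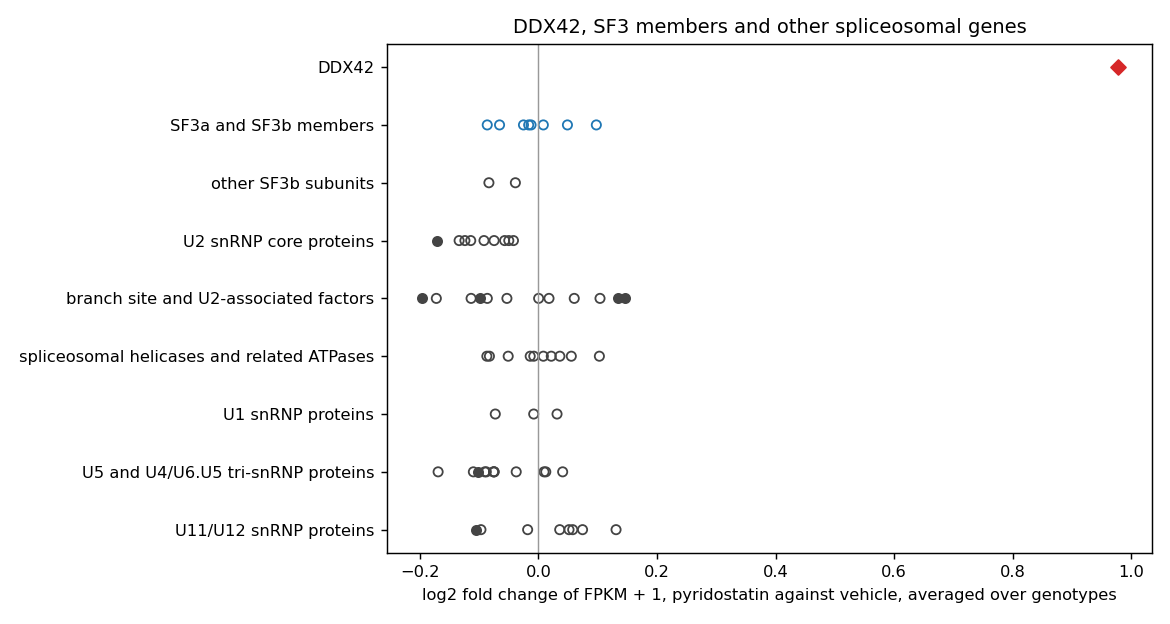
Log2 fold changes of FPKM + 1 with pyridostatin averaged over genotypes (x axis) for DDX42 (diamond), the 8 SF3 members and 56 other spliceosomal genes by list (y axis); for the lists, filled circles passed an adjusted p under 0.05 and open circles did not, and DDX42 carries no test. DDX42, which was selected on its rise, stands at 0.98, and all other points fall between -0.20 and 0.15.

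DDX42 lies on chromosome 17 head to head with CCDC47, a protein of the endoplasmic reticulum, their RefSeq starts 573 bases apart (GRCh38.p14). The 5 nearest tested genes on each side were taken in RefSeq order. CCDC47 averaged 54.3 and 57.1 FPKM with vehicle and 56.6 and 55.2 FPKM with pyridostatin (wild type, then PARP3-/-), a log2 fold change of 0.01 averaged over genotypes (adjusted p = 0.919, limma). FTSJ3, the next gene on the other side and a ribosome biogenesis factor, had a log2 fold change of 0.03 (adjusted p = 0.579). None of the 10 neighbours was called for pyridostatin, beside 13.9% of all genes, and their log2 fold changes ran from -0.09 (PSMC5) to 0.11 (ERN1), with 1 of them, the small nucleolar RNA SNORD104, measured with an SE of 0.65. No neighbour reached the size of the DDX42 difference, on which DDX42 was selected. Between genotypes 3 of the 10 were higher in PARP3-/-, namely MAP3K3 by 0.19, STRADA by 0.16 and SMARCD2 by 0.13 (adjusted p = 0.00657, 0.0178 and 0.0133), beside 12.2% of all genes called higher. STRADA and SMARCD2 lost that call with the libraries at a common median, with adjusted p of 0.0805 and 0.0969.

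**Figure D4:**
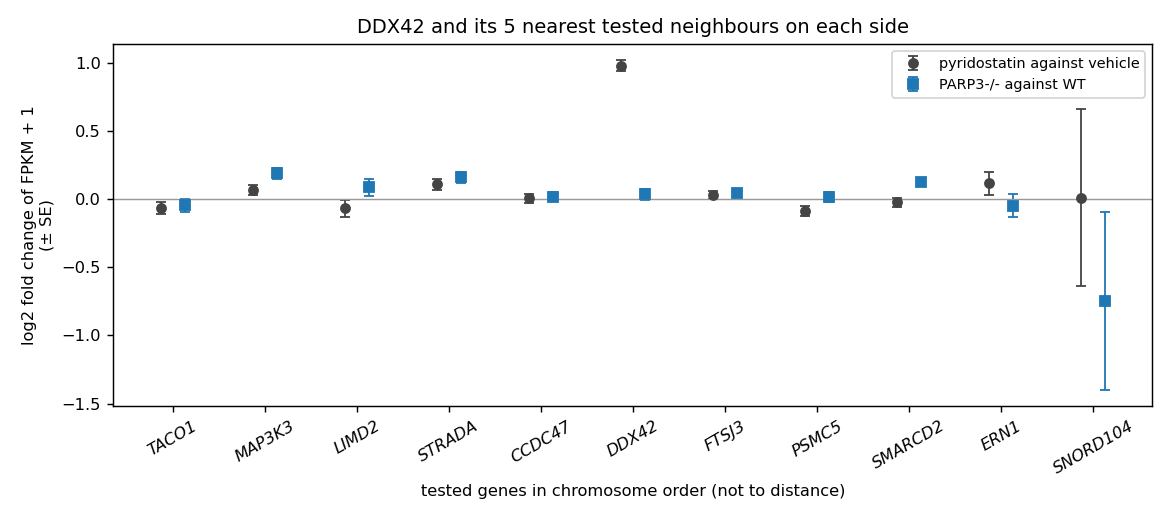
Log2 fold changes of FPKM + 1 ± SE (y axis) of DDX42 and 5 tested genes on each side in chromosome order (x axis), for pyridostatin averaged over genotypes (circles) and for PARP3-/- against wild type averaged over treatments (squares). With pyridostatin DDX42 stands at 0.98 between CCDC47 at 0.01 and FTSJ3 at 0.03.

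Genes were also ranked by how closely their profile followed that of DDX42 over the 12 libraries, as the root mean square difference of log2 values after each gene was centred on its own mean. The 5 nearest were FDXR (mitochondrial ferredoxin reductase, 0.102), SESN1 and SESN2 (sestrins, 0.103 and 0.111), MDM2 (a ubiquitin ligase, 0.113) and CDKN1A (a cyclin-dependent kinase inhibitor, 0.121), where the median over all genes tested was 0.504. FDXR went from 33.7 ± 4.01 to 67.0 ± 2.17 FPKM in wild type and from 36.6 ± 0.992 to 66.6 ± 3.57 FPKM in PARP3-/- (mean ± SD, n = 3). CDKN1A went from 87.0 ± 7.27 to 193.0 ± 3.40 FPKM in wild type and from 100.1 ± 3.90 to 208.1 ± 8.67 FPKM in PARP3-/-. SESN1, SESN2 and MDM2 were far less abundant, with vehicle means between 4.09 and 14.0 FPKM. The 8 SF3 members had differences of 0.446 (SF3A1) to 0.541 (SF3B5), on either side of that median. This ranking describes 12 libraries of 1 experiment and is dominated by the change with pyridostatin.

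**Figure D5:**
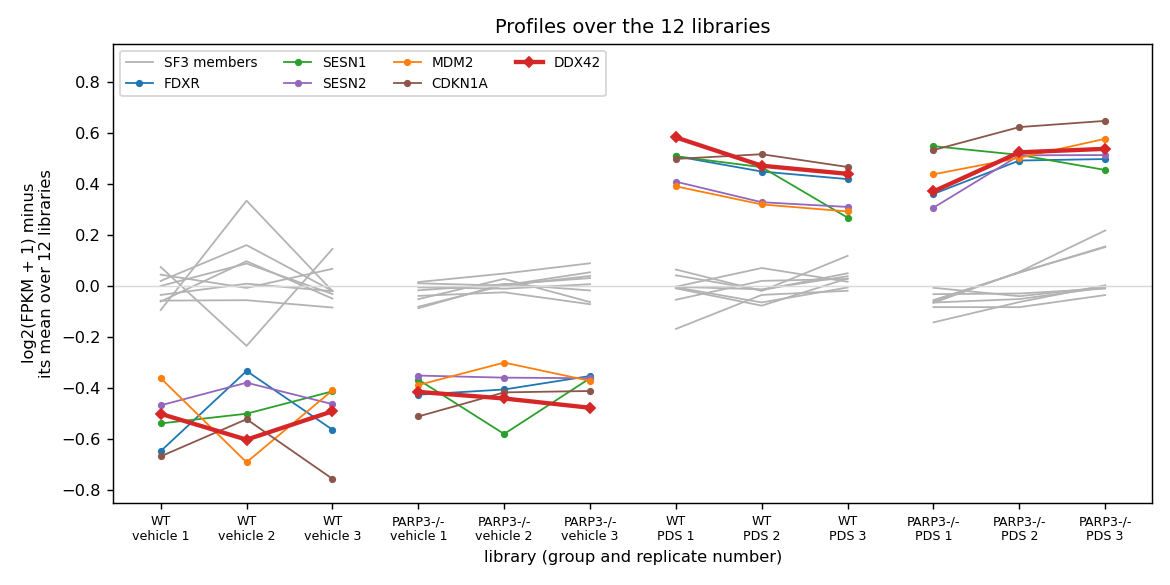
Log2(FPKM + 1) minus the gene's mean over the 12 libraries (y axis) in each library (x axis, lines join the 3 replicates of a group, PDS for pyridostatin) for DDX42, the 5 genes with the nearest profile and the 8 SF3 members in grey. DDX42 and the 5 nearest genes lie below their mean in all 6 vehicle libraries and above it in all 6 pyridostatin libraries, and the SF3 members lie on both sides of 0, the farthest being SF3B5 at 0.34 and SF3B1 at -0.23 in wild-type vehicle replicate 2.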

How the data were processed

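FPKM values of 12 libraries (4 groups of 3) were analysed as deposited by the authors, 1 column per library, in a table named for Cufflinks. Per the submitters' processing notes bcl2fastq 2.16, STAR 2.5 and Cufflinks were used, and hg19 and mm9 are listed as builds without a role. Read assignment, length scaling and depth scaling are thus already in the values, and 0 columns were left unused. FPKM gives no read depth. Low values that are multiples of 1 read put the relative depth of the libraries between 0.890 and 1.26 of wild-type vehicle replicate 1. The depth was read from the commonest ratio of low values, at which 27.0% to 36.7% of the ratios lay. It does not give the precision of a library, and wild-type vehicle replicate 2 deviated most from its group at a relative depth of 1.05.

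Values were taken as log2(FPKM + 1), which understates changes of low genes. Genes whose mean was not below 1 FPKM (11881) were fitted with limma 3.58.1 in R 4.3.3 (4 group means, eBayes with a trend, no block). P-values were adjusted over all of them by Benjamini and Hochberg, and an adjusted p under 0.05 is a call. The authors' own count test was not used here. A simulation was run for the averaged pyridostatin comparison (11881 genes). The fit recovered 52.2%, 92.5% and 97.0% of genes changed by 0.25, 0.5 and 1 on the log2 scale. There 67, 67 and 66 genes were changed, with noise independent between genes and libraries. The data have more called genes and a library with a shift by transcript length, so these rates may not carry over. Exact permutation tests were stratified by genotype or treatment. The members and lists were chosen with earlier results of these data known, and the p-values of the members carry that limit. Named genes were the 9 members, in each list up to 4 genes with the smallest p for pyridostatin and up to 2 for genotype of which the called ones are described, the 5 nearest profiles, 5 tested neighbours on each side, PARP3 and markers. Levels, ratios, the overlap of groups and the DDX42 response are descriptions. Transcript lengths are the longest per gene in GENCODE release 29, and promoter windows and gene order come from RefSeq (GRCh38.p14). Alternatives were another pseudocount, filter, scaling, variance trend or sample set, a replicate block, and each library left out.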

Additional observations from a re-analysis of the deposited data

How the results depend on the processing

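The counts of called members were recomputed under 19 or 20 alternatives each. The averaged pyridostatin count of SF3 members rose from 0 to 1 with the libraries at a common median (SF3B3, beside 14.9% of all genes called), and leaving out 1 library gave 0 to 1, the 1 being SF3A1 without PARP3-/- pyridostatin replicate 1 (beside 11.9%). Leaving out 1 library gave 0 to 1 called members for genotype with pyridostatin and for genotype averaged over treatments, in both cases SF3B1 without wild-type vehicle replicate 2 (beside 19.3% and 27.2% of all genes). With 1 library left out, the share of all genes called for genotype with pyridostatin ran from 6.78% to 19.3%, and with only its own libraries in the fit that for pyridostatin in wild type was 0.547%. Why these calls appear was not tested. The other counts stayed at 0. The DDX42 difference ran from 0.99 to 1.06 in wild type and from 0.89 to 0.98 in PARP3-/-. Over members, 1170 of 1174 recomputed values stayed uncalled, 4 newly passed (0 with a reversed sign), and 54 values that were not called changed sign. The DDX42 response to pyridostatin is left out of these values. No member was called in the remaining comparisons with all libraries fitted as described, so there was no call to lose. Over the other named genes 1538 of 1630 stayed, 71 lost a call, 21 newly passed and 0 reversed. With 1 of the 12 libraries left out at a time, the pyridostatin calls of RBM5, SNRPA1, PRPF6 and ZCRB1 were lost for 7, 8, 8 and 10 of the libraries, and the genotype calls of PDCD7 and ZCRB1 for 8 and 9.

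The deviations of same-numbered replicates of different groups correlated at -0.120 to 0.216. In 8 of 12 pairs the own number gave the highest correlation, a hint of pairing in the data, though the pairs share libraries. Only replicate 1 between genotypes with vehicle (0.103) and replicate 3 between treatments in PARP3-/- (0.216) exceeded 0.1. Some pairs were negative, and the numbers are not known to mark a shared day or batch. With the replicate number as a block, 0 members were called in each comparison. Every group holds each replicate number, so the block cannot move a log2 fold change. The DDX42 differences of 1.03 and 0.92 were therefore the same by design. The block moved the averaged pyridostatin calls over all genes from 1657 to 1581, and ended the calls of SNRPA1, ZCRB1 and PDCD7.

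FPKM values carry no counts, so counting error cannot be given, and the transcript of each gene is measured as a sum over its isoforms. With 3 libraries a group, no SF3 subunit was called for pyridostatin when all libraries were fitted as described. The intervals given are the ranges of change that the values allow. They are not adjusted for the number of genes. Averaged over genotypes, the interval of SF3B3 lay wholly below no change and that of SF3A1 wholly above it. These 2 of 8 members stand beside 28.9% of all genes with an unadjusted p under 0.05 (limma). Their adjusted p were 0.103 and 0.164. The libraries labelled PARP3-/- are not lower in PARP3 transcript and come from cloned cells, so genotype and clone cannot be told apart.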
